A study of Mus musculus with 3 samples.

Results

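Epithelial-mesenchymal transition (EMT) is the switch in which epithelial cells loosen their junctions and take on features of motile mesenchymal cells. It is driven by a small set of transcription factors and read out by a few structural genes. Described here are 9 such genes, taken by name from the 22658 gene models of the study: the zinc finger repressors Zeb1, Zeb2, Snai1 and Snai2, the basic helix-loop-helix (bHLH) factors Twist1 and Twist2, the homeobox factor Prrx1, the mesenchymal filament gene Vim and the N-cadherin gene Cdh2. All 9 had a model in each of the 3 libraries. Nascent RNA was measured by Bru-seq, in which cells were given 2 mM bromouridine for 30 min and the labelled RNA was pulled down and sequenced, so the values report transcription during that window.

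The cells were NB490, a mouse pancreatic cancer line selected with puromycin for an inducible shRNA against PDX1, the pancreatic homeodomain factor. The uninduced library came from this line at 0 h of doxycycline, the second from the same line after 48 h of doxycycline, and the third from cells grown out under doxycycline for more than 3 weeks. All groups carried the hairpin, and cells given doxycycline without it were not analysed here. With 1 library a condition and no replicates, no p-values are given, and each difference is one between libraries. Library read totals, back-calculated from the deposited counts, model lengths and levels, were 51006774, 48418864 and 41632296. Wherever 3 values follow each other, they run from uninduced cells over 48 h to grown-out cells. Intervals are 95% intervals and cover counting error only. Pdx1, the gene the hairpin targets, had 406, 256 and 296 reads, or 1.59, 1.05 and 1.41 RPKM. It was 1.51-fold lower at 48 h (1.28 to 1.77), and 1.12-fold lower in grown-out cells with an interval reaching past no change (0.961 to 1.30). A hairpin acts on mature RNA, which nascent RNA does not measure. Levels are in RPKM, reads per kilobase of gene model, scaled to the reads of the library. Introns are included in general, but some models count only part of their span. That of Krt19 counts 1373 bp between 100002126 and 100007233 on chromosome 11, and those of the markers Pecam1 and Acta2 are also shorter than their span.

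ZEB, SNAIL and TWIST factors bind E-box sequences and repress epithelial genes such as Cdh1, which encodes E-cadherin. ZEB factors and the miR-200 microRNAs repress each other, an arrangement known for holding cells in an epithelial or a mesenchymal state. The miR-200 family is shown because its seed (bases 2 to 8, in capitals), the part that pairs with target RNAs such as those of Zeb1 and Zeb2, splits it into 2 groups. The mature sequences from RefSeq (GRCm38.p6) are, first those with the seed AAUACUG:
mmu-miR-200b-3p: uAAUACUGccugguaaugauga
mmu-miR-200c-3p: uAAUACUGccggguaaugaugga
mmu-miR-429-3p: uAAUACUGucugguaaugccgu
and then those with the seed AACACUG:
mmu-miR-200a-3p: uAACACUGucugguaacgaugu
mmu-miR-141-3p: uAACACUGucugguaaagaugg

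The 5 loci of this family had 0 reads in every library. Their models cover only 384 bp together, so a count of 0 allows up to 0.153, 0.161 and 0.188 RPKM over the 5 together.

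Promoters were read for 6 of the 9 genes, as the 250 bases before the transcription start in the RefSeq table. Those printed are Vim, the most transcribed of the genes, Twist2, the gene past 2-fold at 48 h, and Snai1, the only gene of the 6 with an E-box of the kind ZEB and SNAIL factors bind. Capitals mark every match on either strand to CAGGTG, which is that E-box, to the promoter element CCAAT, to the TATA box written as TATAAA, or to the homeodomain core TAATTA.
Vim (GRCm38.p6 chr2:13574061-13574310, plus strand): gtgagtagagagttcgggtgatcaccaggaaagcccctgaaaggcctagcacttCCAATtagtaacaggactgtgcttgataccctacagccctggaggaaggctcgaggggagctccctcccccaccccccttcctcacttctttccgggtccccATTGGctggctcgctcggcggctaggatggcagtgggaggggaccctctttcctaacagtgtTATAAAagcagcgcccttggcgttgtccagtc
Twist2 (GRCm38.p6 chr1:91801211-91801460, plus strand): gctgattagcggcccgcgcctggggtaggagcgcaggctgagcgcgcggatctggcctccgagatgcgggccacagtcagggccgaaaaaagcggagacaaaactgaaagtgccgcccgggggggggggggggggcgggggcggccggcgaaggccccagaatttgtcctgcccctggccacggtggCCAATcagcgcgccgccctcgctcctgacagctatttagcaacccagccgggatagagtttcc
Snai1 (GRCm38.p6 chr2:167537945-167538194, plus strand): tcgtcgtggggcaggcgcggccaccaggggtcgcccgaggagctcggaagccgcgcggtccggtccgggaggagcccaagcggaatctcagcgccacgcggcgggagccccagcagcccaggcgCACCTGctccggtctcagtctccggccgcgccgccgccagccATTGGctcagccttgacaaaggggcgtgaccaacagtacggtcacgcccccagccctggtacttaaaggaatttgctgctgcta

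A CCAAT box, the element bound by NF-Y, lay before the start of 5 of the 6 genes, namely Vim, Twist1, Twist2, Snai1 and Zeb2, where Zeb2 has it before 1 of its 4 listed starts. Of all 32851 promoters of this length, 33.8% hold one. The E-box of Snai1 starts 126 bases before the start site, and 17.2% of all promoters hold this motif. TATAAA was found for Vim, 32 bases before the start, and for Twist1, against 12.4% of all promoters. TAATTA, the core that PDX1 and many other homeodomain proteins bind, was found before Prrx1, and 4.84% of all promoters hold it. These matches describe letters in a window and were not tested as binding sites.

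Vim stood far above the factors in uninduced cells. It had 34.6 RPKM (34.1 to 35.2) and ranked 35 of 21775 models. Zeb1 had 1.73 RPKM (1.71 to 1.76), Cdh2 1.54 (1.52 to 1.56), Twist2 1.41 (1.36 to 1.46) and Snai2 1.32 (1.16 to 1.50). Twist1 had 0.707 RPKM (0.559 to 0.883) and Zeb2 0.328 (0.314 to 0.342). Snai1 and Prrx1 were close to silent, at 0.0727 (0.0423 to 0.116) and 0.0535 (0.0461 to 0.0617) RPKM. In this order, Twist2 did not differ from Snai2 beyond counting error, at 1.06-fold (0.932 to 1.22), nor Snai1 from Prrx1, at 1.36-fold (0.775 to 2.23), and every other pair of neighbours did. Of the factor pairs, Zeb1, Snai2 and Twist2 were the more transcribed there. At 48 h the order was Vim, Zeb1, Cdh2, Snai2, Twist2, Twist1, Zeb2, Prrx1 and Snai1, and Twist2 and Twist1, Twist1 and Zeb2, and Prrx1 and Snai1 could not be ranked. In grown-out cells Cdh2 stood above Zeb1, by 1.15-fold (1.13 to 1.18), and Twist1 and Zeb2 could not be ranked. Snai2 exceeded Snai1 by 18.2-fold (11.1 to 31.8) in uninduced cells.

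**Figure D1:**
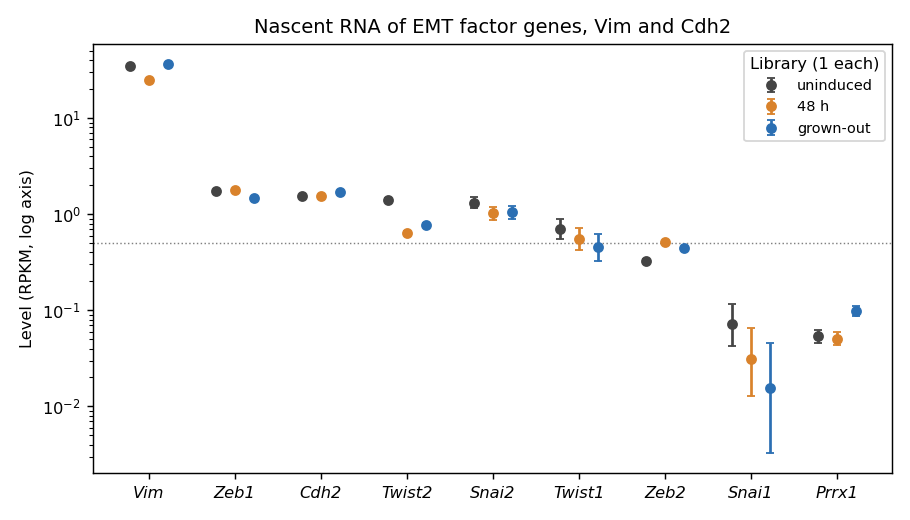
Level of each gene (RPKM on a log axis) in the 3 libraries, with exact Poisson 95% intervals of the reads; the dotted line is the expression minimum of 0.5 RPKM. Vim lies near 30 RPKM in every library, 6 genes lie between 0.3 and 2 RPKM, and Snai1 and Prrx1 lie below 0.12 RPKM.

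Vim, Zeb1, Cdh2, Twist2, Snai2, Twist1 and Zeb2 lay above every fibroblast, endothelial and pericyte marker in each library, whereas Snai1 and Prrx1 lay below Esam, an endothelial marker. The immune marker genes Cd68 and Cd14 lay within the range of the factors. In uninduced cells both were above Twist1 and Zeb2, and Cd14, at 1.42 RPKM (1.17 to 1.70), was level with Twist2 and Snai2 within counting intervals. In both doxycycline libraries Cd68, at 0.916 and 0.901 RPKM, lay above Twist2, at 0.642 and 0.770 RPKM. The intervals of Cd68 and Twist2 overlapped in grown-out cells, and those of Cd68 and Twist1 in uninduced cells. None of 10 fibroblast markers was above 0.0478 RPKM (Pdgfra) in any library, and their summed reads were 171, 131 and 87.0. Lum, Pdgfrb, Thy1 and Pdpn had 0 reads in every library. Of 6 endothelial markers the highest was Esam at 0.111 to 0.135 RPKM, with sums of 257, 238 and 139 reads, and of 5 pericyte and smooth muscle markers Cspg4, at 0.0327 to 0.0366 RPKM. The 7 immune markers were led by Cd14, at 1.42, 0.451 and 0.469 RPKM, and Cd68, at 0.994, 0.916 and 0.901 RPKM, while Lyz2 had 0 reads in every library and the leukocyte gene Ptprc at most 2 reads, and the sums were 210, 122 and 98.4 reads. These sums were highest in uninduced cells, as were Twist2 and Snai2, and their part in those results was not tested. In bulk RNA, fewer cells of a type and less RNA per cell cannot be told apart.

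The label of a pancreatic cancer line was met in part by epithelial markers. Krt8, Krt18 and Cdh1 were transcribed at 10.8, 14.2 and 4.81 RPKM in uninduced cells. Epcam, an epithelial surface gene, had 0.0984, 0.0736 and 0.0270 RPKM, the tight junction gene Cldn4 had 6, 0 and 1 reads, and its relative Cldn7 had 0 reads in every library, which allows up to 0.0232 RPKM. Of 22 genes listed as guardians of the epithelial state (transcription factors, splicing factors and microRNAs that oppose EMT), 7 reached the expression minimum, and 14 had a mean level under 0.05 RPKM. The microRNA models among the 14 are shorter than 300 bp, so they could not count as measured. Their 0 reads allow up to 0.801 to 1.06 RPKM each, so they are not shown to be low. Also among the 14 were Grhl2, with 9, 6 and 4 reads over a 130533 bp model, and Esrp1 with 1, 0 and 3 reads. So were Ovol2, at 0.0107 to 0.0277 RPKM, and Ovol1 with 0 reads, which allows up to 0.00630 RPKM. These 4 were picked after their values were seen. The guardian most transcribed was Klf5, a Kruppel-like factor, at 10.8 RPKM. Of 32 epithelial genes that EMT factors repress, 15 reached the minimum and 8 had a mean under 0.05 RPKM, and of 34 mesenchymal genes 14 and 17 did. Over all 22658 models, 7915 reached the minimum and passed the other filters, and the guardian count of 7 of 22 is near that share. For the lower bound, 46.7% of models of at least 300 bp lay below Prrx1, at 0.0506 RPKM, in the 48 h library. That share leaves out models as short as the microRNA loci, which are counted among the 14. The count of 14 of 22 therefore cannot be set against it, and the guardians are not shown to be low as a group.

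**Figure D2:**
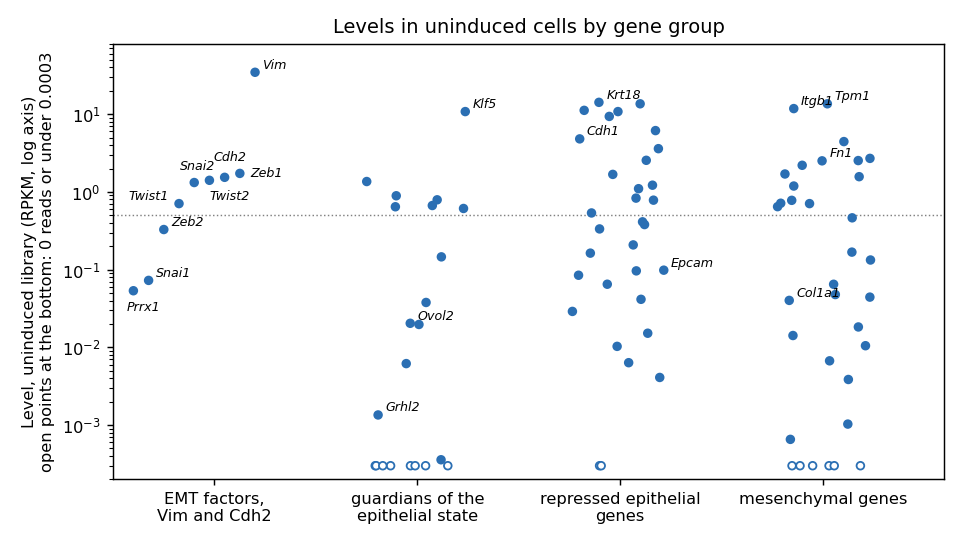
Level in the uninduced library (RPKM on a log axis) for the 9 genes and 3 gene lists; each point is a gene, horizontal position within a list carries no meaning, open points at the bottom are genes with 0 reads or under 0.0003 RPKM, and the dotted line is 0.5 RPKM. Each of the 3 lists spreads from near 0 to above 10 RPKM, with Grhl2 and Ovol2 low and Klf5 high among the guardians.

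The first comparison asked what differed after 48 h of doxycycline. A gene was called beyond counting error where the 95% interval of its fold excluded no change, and past 2-fold where in addition the log2 ratio of RPKM plus 0.05 reached 1 in size. Beyond counting error, 1 of the 9 genes, Zeb2, was higher and 3 were lower, namely Twist2, Vim and Snai2, where 30.1% of the 7915 measured models were higher, 30.0% lower and 60.1% either. Past 2-fold there was Twist2, lower, against 0.745% of all measured models in either direction, 0.0253% higher and 0.720% lower. A model was measured where its mean over the libraries was at least 0.5 RPKM. This held for 6 of the 9 but not for Zeb2, Snai1 and Prrx1. Among the 6 measured genes, 0 were higher and 3 lower beyond counting error at 48 h.

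Twist2 (chromosome 1, 93698054 to 93744604, plus strand), a bHLH repressor known from dermis and bone, had 3344, 1447 and 1493 reads, or 1.41, 0.642 and 0.770 RPKM. The uninduced library was the high one and neither doxycycline interval reached it. The level was 2.19-fold lower at 48 h (2.06 to 2.33), a log2 ratio of -1.08, which ranked 45 from the lowest of 7915, and 1.83-fold lower in grown-out cells (1.72 to 1.94). With a pseudocount of 0.5 RPKM, which shrinks low genes, the 48 h log2 ratio was -0.74, short of 2-fold. Twist1 (chromosome 12, 34642536 to 34644696, plus strand), which specifies mesoderm and is the classic bHLH driver of EMT, had 78.0, 58.5 and 41.0 reads, or 0.707, 0.559 and 0.456 RPKM. The intervals of the libraries overlapped: its fold at 48 h was 1.27 downwards, not beyond counting error (0.897 to 1.83), and it was 1.55-fold lower in grown-out cells (1.05 to 2.32). Twist2 exceeded Twist1 by 1.99-fold (1.59 to 2.52) in uninduced cells and by 1.15-fold (0.891 to 1.53) at 48 h, so the 2 could not be ranked there.

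Neither nearest model beside Twist2 was lower beyond counting error. Asb1, on the same strand, had 0.661 RPKM in both the uninduced and the 48 h library and 1.02 RPKM in grown-out cells, and Hdac4, a histone deacetylase gene on the other strand, had 1.08, 1.18 and 1.10 RPKM. Among 7000 named measured models with at least 100 reads in every library, none lay within 0.1 of Twist2 in the plane of its 2 log2 ratios to the uninduced library. The nearest were Ier3 at a distance of 0.106, Fhl3 at 0.111 and Dusp6 at 0.129, where distance is Euclidean over those 2 ratios and so rests on 3 libraries. Twist2 ranked 45 from the lowest of 7915 at 48 h and 106 in grown-out cells, where models are sparse. The lack of close models therefore does not show a pattern of its own. Nearer the centre, 49 models lay within 0.1 of Vim, the nearest being Brd2, Sbno2 and Pkm2, and 383 of Zeb1, led by Rab43, Usp32 and Adipor1. The models nearest to Snai2 were Zswim6, Aacs and Net1, to Twist1 Rdh10, Fkbp7 and Eif2ak3, and to Cdh2 Timm17b and Phtf2.

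Zeb1 and Zeb2, large repressors with zinc finger clusters around a homeodomain, differed in pattern. Zeb1 (chromosome 18, 5591889 to 5774909, plus strand) had 16184, 15680 and 11232 reads, or 1.73, 1.77 and 1.47 RPKM. The first 2 libraries were close and the grown-out one lower: the fold was 1.02 at 48 h (0.998 to 1.04), and grown-out cells were 1.18-fold lower (1.15 to 1.20). Zeb2 (chromosome 2, 44839154 to 44968799, minus strand) had 2166, 3217 and 2386 reads, or 0.328, 0.513 and 0.442 RPKM, with the uninduced library the lowest and no overlap of intervals. It was 1.56-fold higher at 48 h (1.48 to 1.65) and 1.35-fold higher in grown-out cells (1.27 to 1.43). The ratio of Zeb1 to Zeb2 within a library, which needs no scaling between libraries, went from 5.29 (5.06 to 5.53) to 3.45 (3.32 to 3.59) and 3.33 (3.19 to 3.48). At 48 h it was 0.652 of its uninduced value (approximate 95% interval 0.615 to 0.692), and in grown-out cells 0.630 (0.592 to 0.671). Of overlapping models, Gm10125, which overlaps the start of Zeb1 on the other strand, had 0.0302 to 0.0342 RPKM.

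Snai2 (chromosome 16, 14705952 to 14709475, plus strand), also called Slug, had 238, 173 and 154 reads, or 1.32, 1.02 and 1.05 RPKM. The uninduced library was the highest, its interval overlapping those of the others slightly. It was 1.30-fold lower at 48 h (1.07 to 1.60) and 1.26-fold lower in grown-out cells (1.03 to 1.56), and the latter interval included no change under median-of-ratios scaling. Snai1 (chromosome 2, 167363727 to 167368311, plus strand), or Snail, rested on 17, 7 and 3 reads. Its 48 h value was 2.31-fold lower, not beyond counting error (0.909 to 6.58), and its grown-out value 4.63-fold lower (1.34 to 24.6), a range too wide to give a size. Prrx1 (chromosome 1, 165175250 to 165243781, minus strand), a homeobox factor of limb and craniofacial mesenchyme, had 187, 168 and 280 reads, or 0.0535, 0.0506 and 0.0981 RPKM. The grown-out library stood apart as the high one, 1.83-fold above the uninduced one (1.52 to 2.22), while the 48 h value was 1.06-fold lower, not beyond counting error (0.853 to 1.31).

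**Figure D3:**
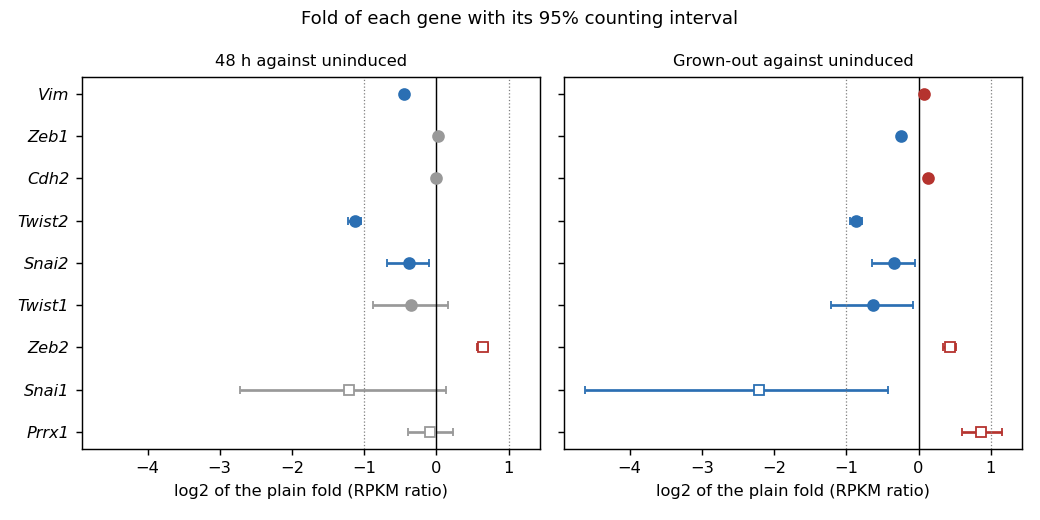
Log2 of the plain fold (ratio of RPKM) of each gene against the uninduced library, with exact 95% counting intervals; filled circles are measured genes, open squares those under the expression minimum, red is higher and blue lower beyond counting error, grey neither, and dotted lines mark 2-fold. At 48 h Twist2 lies lowest of the measured genes and Zeb2 is the higher one; in grown-out cells Zeb2, Prrx1, Cdh2 and Vim are higher and the other 5 lower.

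Vim (chromosome 2, 13495938 to 13504453, plus strand), which encodes vimentin, the intermediate filament of mesenchymal cells, had 15034, 10408 and 12918 reads, or 34.6, 25.2 and 36.4 RPKM. The 48 h library was the low one and the others lay close together. It was 1.37-fold lower at 48 h (1.34 to 1.41) and 1.05-fold higher in grown-out cells (1.03 to 1.08). Against the epithelial filament gene Krt18, Vim stood at a ratio of 2.43 (2.34 to 2.53), 1.67 (1.60 to 1.75) and 2.71 (2.59 to 2.84) within the libraries, and against its partner Krt8 at 3.19, 2.63 and 3.20. The other 2 measured keratin genes were Krt7, 1.08-fold lower at 48 h (1.05 to 1.12), and Krt19, which was 1.70-fold lower (1.53 to 1.89), more than Vim. Vim at 48 h was thus lower relative to Krt7, Krt8 and Krt18, but not relative to Krt19. Of 8 measured intermediate filament and linker genes other than Vim, 7 were lower and 1, Krt18, higher beyond counting error at 48 h, where 30.1% of all measured models were higher and 30.0% lower, and 5 were higher and 2 lower in grown-out cells, where the shares were 33.6% and 29.5%. The nuclear lamin gene Lmna had 4.39, 3.08 and 6.32 RPKM, low at 48 h like Vim and 2.05-fold higher in grown-out than in 48 h cells (1.97 to 2.14).

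Cdh2, the N-cadherin gene (chromosome 18, 16747386 to 16967558, minus strand), had 17287, 16469 and 15589 reads, or 1.54, 1.54 and 1.70 RPKM. The first 2 libraries agreed within counting error, with a fold of 1.00 (0.982 to 1.03), and grown-out cells were 1.10-fold higher (1.08 to 1.13). Cdh1, for E-cadherin, had 4.81, 4.63 and 5.35 RPKM. The ratio of Cdh1 to Cdh2 was 3.13 (3.06 to 3.20), 3.00 (2.93 to 3.06) and 3.14 (3.07 to 3.22), so the balance of these 2 cadherin genes moved by 0.958-fold at 48 h (0.929 to 0.988) and by 1.01-fold in grown-out cells (0.975 to 1.04). Of the 7 measured cadherin and catenin genes other than Cdh2, 6 were lower and 0 higher beyond counting error at 48 h, beside 30.0% and 30.1% of all measured models, Jup, the plakoglobin gene, most so at 1.79-fold (1.47 to 2.21). Ctnnb1, which encodes beta-catenin, was 1.22-fold lower (1.19 to 1.24).

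**Figure D4:**
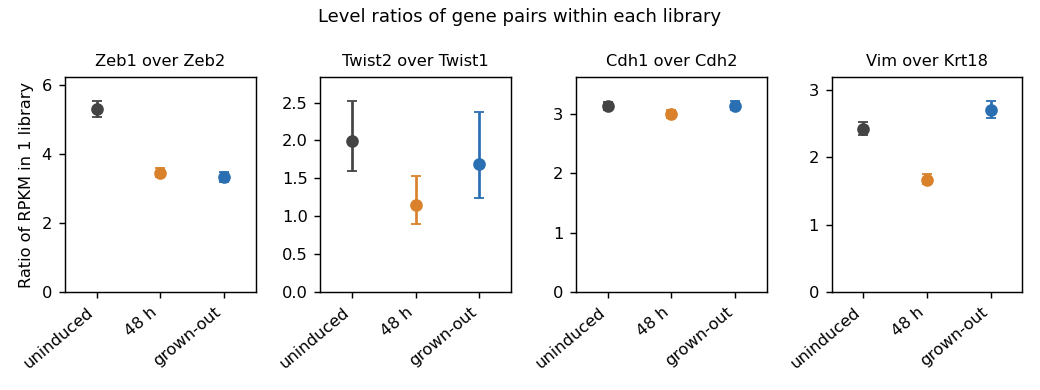
Ratio of RPKM of 2 genes within the same library, with exact 95% counting intervals; each axis starts at 0. Zeb1 over Zeb2 is lower in both doxycycline libraries, Cdh1 over Cdh2 stays between 3.00 and 3.14, and Vim over Krt18 is lowest at 48 h.

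The second comparison asked what differed in grown-out cells, against the same uninduced library, so both comparisons share it. Beyond counting error, 4 of the 9 genes were higher, namely Zeb2, Prrx1, Vim and Cdh2, and 5 were lower, where 33.6% of measured models were higher, 29.5% lower and 63.0% either. Those shares cover measured models only, and of the 6 measured genes 2 were higher and 4 lower. None of the 9 was past 2-fold by the log2 ratio with its pseudocount, against 0.872% of all measured models, 0.164% higher and 0.708% lower. The median log2 ratio of the 9 was -0.23, and that of the 6 measured genes -0.27, beside 0.01 over all measured models. At 48 h these medians were -0.31 and -0.34, beside 0.00. Set against the 48 h library, 4 of the genes were higher in grown-out cells, Vim by 1.44-fold (1.41 to 1.48), Twist2 by 1.20-fold (1.12 to 1.29), Cdh2 by 1.10-fold (1.08 to 1.13) and Prrx1 by 1.94-fold (1.60 to 2.36), where 35.6% of measured models were higher. Zeb1 and Zeb2 were lower there, by 1.20-fold (1.17 to 1.23) and 1.16-fold (1.10 to 1.22), where 32.0% were lower and 67.6% either. Among the 6 measured genes 3 were higher and 1 lower. None of the 9 was past 2-fold against the 48 h library, beside 1.02% of all measured models, 0.708% higher and 0.316% lower.

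Partners and regulators of these factors were read from lists. Twist proteins act as dimers with E proteins, which Id proteins sequester. The E protein gene Tcf12 had 3.92, 3.96 and 3.31 RPKM, above both Twist genes. Id1 and Id2 were low at 48 h: Id1 was 3.17-fold lower at 48 h (2.19 to 4.69) and 1.51-fold higher in grown-out cells (1.19 to 1.93), and Id2 was 2.23-fold lower (1.94 to 2.56) and 1.39-fold higher (1.25 to 1.54). Of 16 measured corepressors and chromatin partners, 6 were higher and 4 lower at 48 h beyond counting error, and 11 were higher and 1 lower in grown-out cells, none past 2-fold. Of all measured models, 30.1% were higher and 30.0% lower at 48 h, which is near the shares of this list, and 33.6% and 29.5% in grown-out cells. Ehmt2, a histone H3 methyltransferase that Snail recruits, was 1.59-fold higher in grown-out cells (1.48 to 1.71), and Eed, a subunit of the Polycomb complex PRC2, was 1.27-fold higher (1.23 to 1.32). Of 12 measured genes for stability of these proteins, 4 were higher and 3 lower at 48 h, and 5 and 6 in grown-out cells, and at 48 h these counts are near the shares of all measured models just given. Among them Fbxl14, an F-box gene whose product targets Snail and Twist proteins for degradation, was 1.21-fold lower at 48 h (1.06 to 1.39) and 1.26-fold higher in grown-out cells (1.11 to 1.43).

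Of 15 measured inducers of EMT, 11 were lower and 3 higher at 48 h, and 10 were lower and 2 higher in grown-out cells, with median log2 ratios of -0.12 and -0.10. Over all measured models 30.0% were lower and 30.1% higher at 48 h, 29.5% and 33.6% in grown-out cells, and the medians were 0.00 and 0.01. Tgfbr2, a TGF-beta receptor gene, was 1.15-fold lower at 48 h (1.13 to 1.18) and 1.34-fold lower in grown-out cells (1.31 to 1.37), and the ligand gene Tgfb2 was 1.06-fold (1.03 to 1.10) and 1.44-fold (1.39 to 1.51) lower. Hmga2, a chromatin protein that induces Snail and Twist genes, had 12.9, 10.3 and 15.3 RPKM, the high level being in grown-out cells. Of the 7 measured guardians, beside the same shares over all models, 3 were lower and 1 higher at 48 h, and 2 higher and 1 lower in grown-out cells, where Gata3 was 1.72-fold higher (1.58 to 1.88) and the pioneer factor gene Foxa1 1.93-fold lower (1.48 to 2.55).

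Of 15 measured epithelial genes that they repress, 12 were lower and 2 higher at 48 h, and 6 higher and 3 lower in grown-out cells, with medians of -0.18 and 0.04. Of all measured models, 30.0% were lower and 30.1% higher at 48 h, and 33.6% higher and 29.5% lower in grown-out cells, with medians of 0.00 and 0.01. Muc1, a mucin gene, was 1.84-fold lower at 48 h (1.60 to 2.13). Of 14 measured mesenchymal genes, 7 were lower and 2 higher at 48 h, and 8 lower and 4 higher in grown-out cells, with medians of -0.12 and -0.19. In grown-out cells 2 of these were past 2-fold, both lower, as were 0.708% of all measured models: Fn1, the fibronectin gene, at 3.43-fold (3.27 to 3.60) and Cald1, an actin-binding gene, at 2.67-fold (2.50 to 2.85). Loxl2, also read from the lists, was 2.15-fold lower there by the plain fold (2.01 to 2.30). It just missed the call, which uses the log2 ratio with its pseudocount. Of the family relatives, only Zfhx3 and Zfhx4 were measured among 11, and Zfhx4, which like ZEB genes encodes zinc fingers and homeodomains, was 1.88-fold lower in grown-out cells (1.82 to 1.95).

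**Figure D5:**
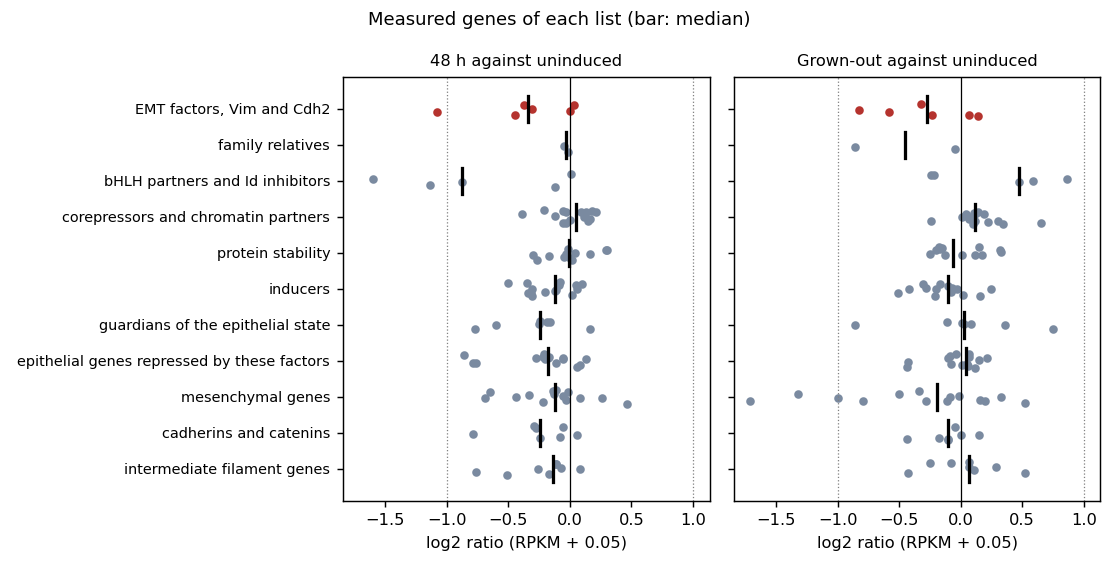
Log2 ratio (RPKM plus 0.05) of the measured genes of each list at 48 h and in grown-out cells against the uninduced library; each point is a gene, vertical scatter carries no meaning, black bars are medians, and dotted lines mark 2-fold. Id1 and Id2 lie lowest at 48 h, followed by Twist2 and Id3. The Id genes lie high in grown-out cells, and Fn1 and Cald1 are the 2 lowest points of the grown-out panel.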

How the data were processed

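The authors' deposited files, 1 per library, hold estimated counts of reads per whole gene model and RPKM, per the file headers. Per the submitters' processing notes, the tools included bedtools 2.16.2, TopHat 1.4.1, Bowtie 0.12.8 and CASAVA 1.8.2. The notes also list hg19, a human build, though the models are mouse genes; so model coordinates stand as deposited, counted from 1, and their build is not given in the sources used here. Between 47.3% and 48.5% of counts above 0 were whole within 0.01 of a read. Counts were rounded for exact Poisson intervals of levels and exact conditional binomial intervals of folds. The interval of a change in a ratio of genes is a normal approximation on the log scale. Log2 ratios used RPKM plus 0.05. Models with a repeated symbol (133) or over 3 Mb (17) were left out, and measured ones have at least 300 bp and a mean of 0.5 RPKM.

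With 1 library a condition no test across samples was possible. Intervals cover counting error only, and reads without molecular identifiers can make them too narrow. The 9 genes and the lists were chosen with earlier results of these data known. Genes named are the 9, Pdx1, Cdh1, in each list the most transcribed measured gene and the 4 with the largest log2 ratios, the models of closest pattern and the nearest neighbours; other names were picked after their values were seen. Some genes this rule names are not reported here. Alternatives were pseudocount, expression minimum, TMM (edgeR 4.0.16), median-of-ratios factors and gene model totals. Python 3.11.15, scipy 1.17.1 and R 4.3.3 were used.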

Additional observations from a re-analysis of the deposited data

Results flagged for a closer look

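Vim was singled out because its log2 ratios to the uninduced library had opposite signs beyond counting error, at -0.45 at 48 h and 0.07 in grown-out cells. The latter is small, at 1.05-fold, and 33.6% of all measured models were also higher there beyond counting error. On the log2 scale the grown-out library stood 0.53 above the 48 h one. With 1 library per condition the difference was not tested.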

How the results depend on the processing

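Of 27 log2 ratios (9 genes in 3 comparisons), none that was beyond counting error changed sign under any alternative. A pseudocount of 0.5 RPKM moved 9 of them by more than the distance from the value to the bound of its counting interval, median-of-ratios factors 3, and TMM factors and gene model totals 0. Under TMM, median-of-ratios and gene model totals, Zeb1 came out higher beyond counting error at 48 h, so that 1 of the measured genes was higher against 0. Genes past 2-fold at 48 h went from 1 to 0 with a pseudocount of 0.5 RPKM or a minimum of 2 RPKM, where only Vim is left. At that minimum the genes higher and lower were 0 and 1 at 48 h, 1 and 0 in grown-out cells, and 1 and 0 for grown-out against 48 h. With no minimum they were 1 and 3, 4 and 5, and 4 and 2. Over all models, those past 2-fold numbered 59, 69 and 81 in the 3 comparisons, but 22, 25 and 24 with the larger pseudocount, 24, 18 and 23 at a minimum of 2 RPKM, and 135, 261 and 248 with none. The causes were not tested. Depth limits Snai1 most, at 3 to 17 reads. No paired analysis was possible because each condition had 1 library.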

Other observations

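Some listed genes under the expression minimum, none of them among the 9 described, differed by 2-fold or more from the uninduced library. They were picked after their values were seen, as those with at least 100 reads in a library and a fold of 2 or more. Cdh6, a type II cadherin gene, had 0.508 RPKM in uninduced cells and 0.157 and 0.162 RPKM in the 48 h and grown-out libraries, from 3616, 1059 and 941 reads. It was 3.24-fold lower at 48 h (3.03 to 3.47) and 3.14-fold lower in grown-out cells (2.92 to 3.37), while Cdh1 and Cdh2 lay within 1.11-fold of their uninduced levels. Nes, which encodes nestin, an intermediate filament protein that pairs with vimentin, had 0.568, 0.481 and 0.195 RPKM and was 2.91-fold lower in grown-out cells (2.25 to 3.80). Prkd1, a kinase gene whose product phosphorylates Snail, was 4.11-fold lower there (3.66 to 4.63), and the tight junction gene Marveld3 2.33-fold lower (1.69 to 3.24), on 53.0 reads.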
